A study of Mus musculus with 8 samples.

Results

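Y-box proteins and a set of other RNA-binding proteins that store, silence or clear maternal mRNA were followed on the polysomes of mouse eggs and embryos. The set was given by name and holds 9 genes: the Y-box genes Ybx1, Ybx2 and Ybx3 (older symbol Csda), the zygote arrest gene Zar1, the insulin-like growth factor 2 mRNA-binding genes Igf2bp2 and Igf2bp3, and the CCCH zinc finger genes Zfp36, Zfp36l1 and Zfp36l2. Every probe set that the platform annotation names for 1 of these symbols was taken, which gave 19 probe sets for 8 of the genes, among 45037 probe sets that are not controls. Igf2bp2 has no named probe set in the annotation used and was not analysed here. Polysomal mRNA, the mRNA carried by clusters of ribosomes, had been isolated from batches of 160 to 500 cells, amplified in 2 rounds of in vitro transcription and hybridized to 1 array per batch. The groups were 4 arrays of metaphase II (MII) oocytes, the ovulated eggs awaiting fertilization, and 4 arrays of 1-cell embryos exposed to α-amanitin, which blocks transcription by RNA polymerase II. The comparison addresses which maternal mRNAs of this set are found on polysomes before and after the egg becomes an embryo. Stage and drug changed together and cannot be told apart here, and the labels used here give no strain, age or time after fertilization. The abundance of an mRNA and its loading onto ribosomes cannot be told apart either, because total mRNA was not analysed here, nor can fewer cells and less RNA per cell.

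Fully grown mouse oocytes stop transcription and live on stored mRNA until the embryonic genome becomes active. Y-box proteins coat mRNA through a cold shock domain and package it in a stable, poorly translated form; Ybx2, also called MSY2, is the germ cell member and one of the most abundant proteins of the oocyte, while Ybx1 and Ybx3 are widely expressed. ZAR1 binds mRNA through a zinc finger and is needed for the oocyte-to-embryo transition. IGF2BP proteins bind mRNA through KH domains and protect it from decay. The ZFP36 proteins act the other way, binding AU-rich elements and recruiting deadenylases, and ZFP36L2 is needed for female fertility in mice.

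The arrays were not equal. Correlations of log2 signal over 23336 kept probe sets were 0.928 to 0.958 among MII arrays and 0.763 to 0.944 among 1-cell arrays. The median intensity of 1-cell array 1 was 72, against 27 to 38 on the other 7 arrays, and the geometric mean of its 18 hybridization controls was 14879, against 857 to 3718. Of 13 oocyte markers with a probe set, 12 lay above the array median on all 8 arrays, Figla being the exception. The summed signal of 17 markers of cumulus and granulosa cells, the somatic cells around the egg, was 710.9 to 980 on MII arrays and 566.6 to 2042 on 1-cell arrays. Of these 17, Inha, Foxl2 and Kitl lay above the array median on all arrays and Amh on none, and the highest sum was that of 1-cell array 1. Of 8 sperm and spermatid markers, none lay above the median on all arrays, Tnp1, Tnp2 and Smcp lay at or below it on every array, and the sum was 200.7 to 276.4 in oocytes and 210.8 to 595.5 in embryos. In the test described below, the sperm marker Prm2 and the granulosa marker Cyp11a1 passed as higher in embryos. The sperm marker Akap4 and the cumulus marker Gja1 passed as lower. Prm2 and Cyp11a1 each exceeded the median on 2 of 4 oocyte arrays, and Akap4 and Gja1 on 0 of 4 embryo arrays, so no size is given. The other kept markers, 8 of cumulus and granulosa cells and 2 of sperm, did not pass. The part of other cells or of array 1 in the values below was not tested, apart from leaving that array out.

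Polysomal signal of the germ cell Y-box gene Ybx2 was more than 10-fold higher in 1-cell embryos. That of its relative Ybx3 was more than 10-fold higher on its brighter probe set and 3.5-fold higher on the other. The signal of Zfp36l2 was 2.12-fold higher, and that of Zar1 was 2.01-fold lower. Ybx1, Igf2bp3, Zfp36 and Zfp36l1 did not pass the test. A probe set was kept for testing if it exceeded the array median on 4 or more of the 8 arrays; 15 of the 19 did so, with at least 1 for each of the 8 genes. Of the 15, 4 were higher and 1 was lower in embryos at an adjusted p under 0.05 (limma, Benjamini-Hochberg over all 23336 kept probe sets), where 19.3% of all kept probe sets were higher and 12.8% lower. That balance depends on the scaling: 4511 calls were higher and 2982 lower on the deposited scale (60.2% higher), 3396 and 3576 after quantile normalization (48.7%), and 2937 and 2841 after median centring (50.8%). Intensities of the 2 groups did not overlap in these same 5 probe sets, against 32.6% of all kept ones. The share of the set that changed was thus close to the 32.1% of the whole array, and the median change of the 15 was 0.16 against 0.17 for all. All changes are log2(intensity + 10), 1-cell embryo minus MII oocyte, with the limma SE, and understate the change of dim probe sets.

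**Figure D1:**
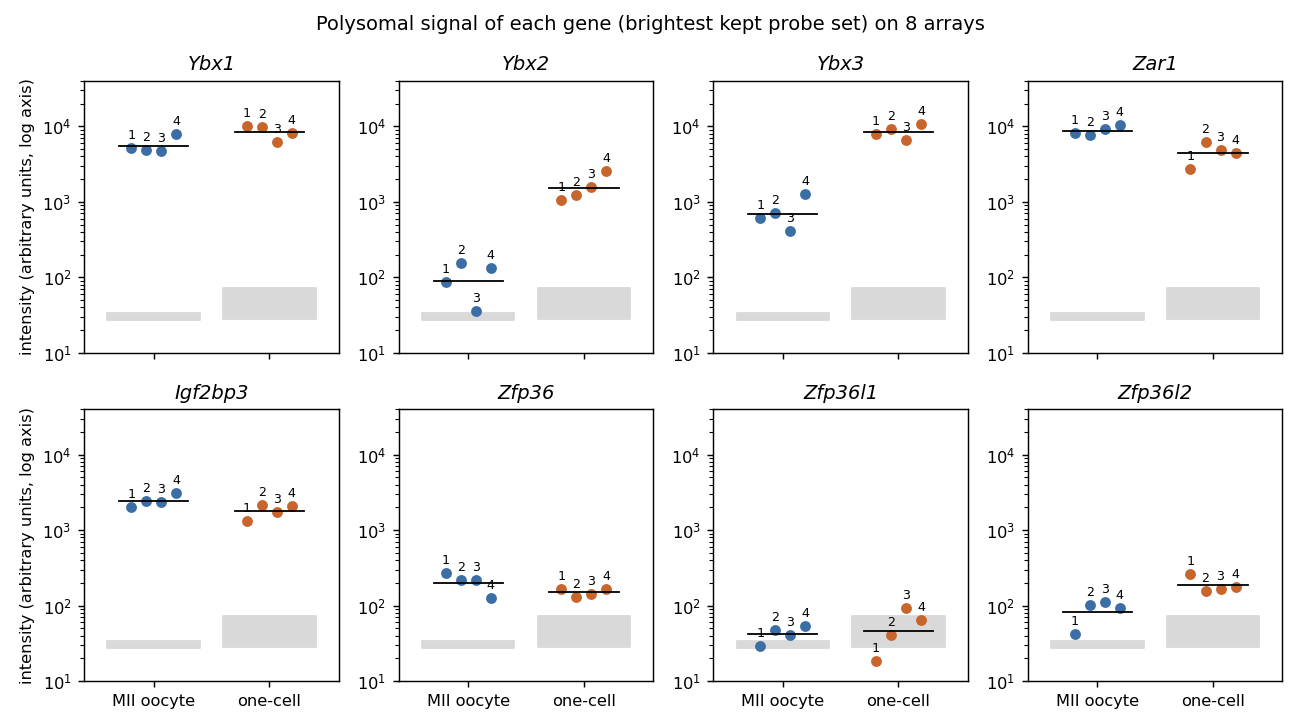
Deposited intensity (arbitrary units, log axis) of the brightest kept probe set of each of 8 genes on 4 MII oocyte arrays (blue) and 4 1-cell embryo arrays (orange), numbered by array, with the geometric mean as a line and the range of the arrays' medians in grey. The groups stand apart for Ybx2, Ybx3, Zar1 and Zfp36l2 and overlap for the other 4; levels of different genes cannot be compared, since each probe set has its own response.

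Ybx2, the germ cell Y-box gene, has 1 probe set (1420762_a_at). Its intensity was 87.5, 152.4, 35.8 and 131.2 on MII arrays 1 to 4 and 1054.1, 1222.3, 1587 and 2595.1 on 1-cell arrays 1 to 4. Every embryo array was bright and every oocyte array dim, and the lowest embryo value was 6.92 times the highest oocyte value. Each oocyte value lay above the median of its array, that of array 3 only just (35.8 against a median of 30.1). The log2 change was 3.93 ± 0.39 (adjusted p = 2.02e-06), which is 15.2-fold with a 95% interval of 8.57 to 26.9. Only 88 of the 23336 kept probe sets, 0.377%, rose more. Oocyte array 3 held the lowest Ybx2 value and embryo array 4 the highest, and the spread within each group was wide, with an SD of 50.7% of the mean in oocytes and 42.8% in embryos. The change lay between 3.44 and 4.19 in all 19 other settings, the lowest with an offset of 50 in place of 10.

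Ybx3, which encodes the Y-box protein known as CSDA or MSY4, has 2 probe sets, and both rose. On the brighter one (1435800_a_at) the oocyte intensities were 617, 706, 405.7 and 1266.6 and the embryo intensities 7962.6, 9223.7, 6593.7 and 10621.6. All embryo arrays lay far above all oocyte arrays, with the lowest embryo value 5.21 times the highest oocyte value. The log2 change was 3.60 ± 0.35 (adjusted p = 1.7e-06), or 12.1-fold with a 95% interval of 7.23 to 20.4. The other probe set (1451012_a_at) read 901.3, 1704.8, 743.6 and 2248.2 in oocytes and 5311.9, 2986.9, 3252.1 and 7697.3 in embryos. Its groups were closer but still apart, the lowest embryo value being 1.33 times the highest oocyte value. Its log2 change was 1.81 ± 0.40 (adjusted p = 0.00251), a 3.5-fold rise with a 95% interval of 1.94 to 6.34. As with Ybx2, oocyte array 3 was the lowest of the oocytes and embryo array 4 the highest of the embryos on both probe sets.

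The 2 Ybx3 probe sets did not change by the same amount. The log2 ratio of the brighter over the other was -0.54, -1.26, -0.86 and -0.82 on the oocyte arrays and 0.58, 1.62, 1.02 and 0.46 on the embryo arrays. No oocyte ratio reached the lowest embryo ratio. The ratio differed by 1.79 ± 0.37 between the groups (limma over 7650 pairs of probe sets of the same gene, adjusted p = 0.00474), and 25.4% of all such pairs differed at an adjusted p under 0.05. The part of the transcript that each probe set reads was not analysed here. Averaged over both probe sets, Ybx3 rose by 2.71 ± 0.35 (adjusted p = 5.66e-05).

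**Figure D2:**
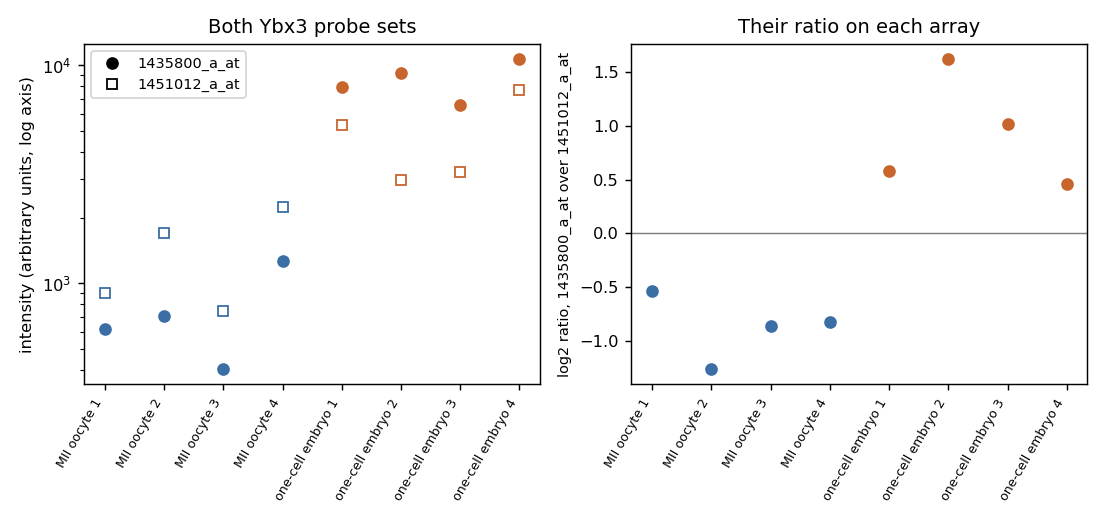
Left, deposited intensity (arbitrary units, log axis) of the 2 Ybx3 probe sets on each MII oocyte (blue) and 1-cell embryo (orange) array; right, their log2 ratio on each array. Both probe sets are higher in all 4 embryo arrays, and the ratio runs from -1.26 to -0.54 in oocytes and from 0.46 to 1.62 in embryos.

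Upstream sequences of the 2 genes that rose most are shown to identify the loci; the embryos had been given a transcription inhibitor, and the arrays measured mRNA on ribosomes, not promoter activity. Y-box proteins take their name from the Y box, an inverted CCAAT element with the core ATTGG, so CCAAT was searched on both strands, together with TAATTG, a sequence bound by the oocyte factor NOBOX; the motifs share the letters ATTG, so matches can overlap. The bases lie before the RefSeq gene span in GRCm38.p6 and run 5′ to 3′ on the gene's strand, and capitals mark a match. The Ybx2 stretch is chr11:69935649-69935804 (plus strand, 156 bases) and that of Ybx3 is chr6:131388451-131388700 (minus strand, 250 bases).
Ybx2: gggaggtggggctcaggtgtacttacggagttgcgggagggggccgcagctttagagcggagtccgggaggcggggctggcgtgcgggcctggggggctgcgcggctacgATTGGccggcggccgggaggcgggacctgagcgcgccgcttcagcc
Ybx3: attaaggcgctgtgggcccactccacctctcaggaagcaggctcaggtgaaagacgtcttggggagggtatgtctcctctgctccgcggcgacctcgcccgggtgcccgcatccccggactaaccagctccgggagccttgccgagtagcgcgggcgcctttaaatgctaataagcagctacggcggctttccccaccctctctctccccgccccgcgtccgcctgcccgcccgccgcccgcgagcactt
The Ybx2 stretch holds 1 match, the Y-box core ATTGG, which begins 46 bases from the downstream end of the stretch. A CCAAT match on either strand is found in 20.9% of 32851 RefSeq promoters, counted in the first 156 of the 250 bases before each start site. These windows were not cut at each gene's span and leave out the bases nearest the start site. The share is thus not a matched background for a stretch that ends at the gene span. The Ybx3 stretch holds 0 matches to CCAAT, which 33.8% of 250-base windows hold. Neither stretch holds TAATTG, which is found in 4.8% and 7.2% of the windows of these lengths.

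Ybx1, the widely expressed founding member of the family, lay far above the array median in both groups. Its bright probe set (1418624_at) read 5115.3, 4876.7, 4729.9 and 7840.3 in oocytes and 10028.5, 9708.9, 6197.8 and 8074.2 in embryos. The groups overlapped only through oocyte array 4 and embryo array 3, and 3 of 4 embryo values exceeded every oocyte value. The log2 change was 0.60 ± 0.35 (adjusted p = 0.222), and its 95% interval, -0.14 to 1.34, includes a rise of up to 2.53-fold. After quantile normalization, which takes the median change of all probe sets from 0.17 to -0.12, Ybx1 passed as higher (1.02 ± 0.23, adjusted p = 0.0054). The other probe sets of Ybx1 were not kept. One (1430720_at) read 22.4 to 41.5 in oocytes and 13.4 to 52.7 in embryos. The other (1438064_at) read 6.3 to 12.5 in oocytes and 14.9 to 83.3 in embryos, with its highest value on 1-cell array 1.

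**Figure D3:**
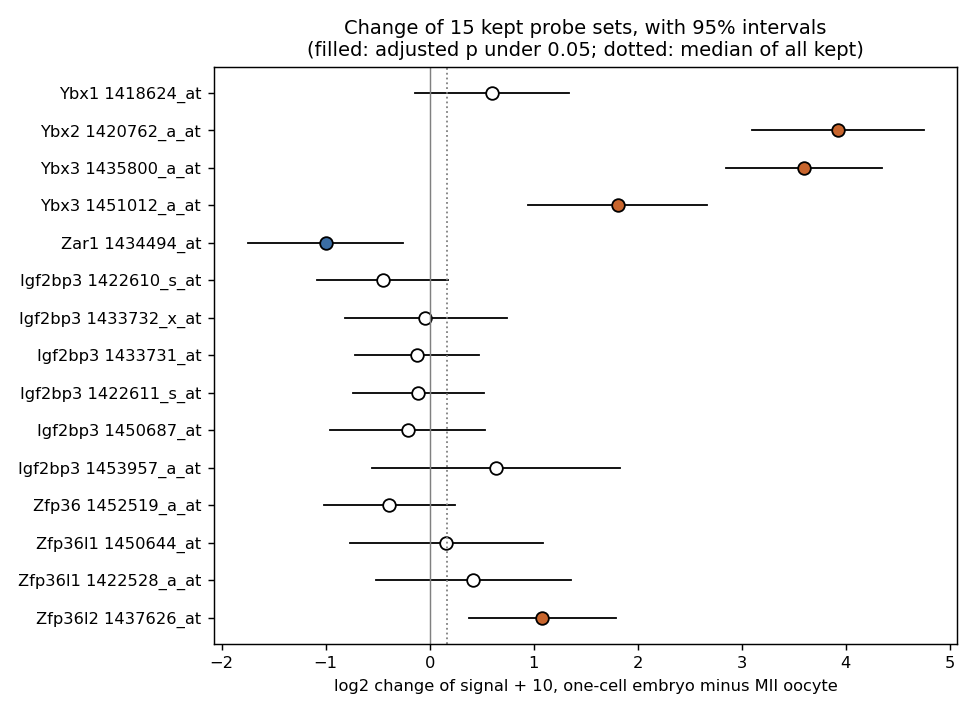
Log2 change of intensity + 10 (1-cell embryo minus MII oocyte) of the 15 kept probe sets with 95% intervals from limma; filled points passed at an adjusted p under 0.05 (orange higher, blue lower), and the dotted line is the median of all kept probe sets, 0.17. Ybx2 and both Ybx3 probe sets lie to the right with Zfp36l2, Zar1 lies to the left, and the intervals of the other 10 include 0.

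Zar1, the maternal-effect gene whose loss arrests the zygote, moved the other way. Its probe set (1434494_at) read 8167.7, 7708.6, 9313.1 and 10295.5 in oocytes and 2755.9, 6185.8, 4867 and 4466 in embryos. All oocyte arrays were brighter than all embryo arrays, though the lowest oocyte value was only 1.25 times the highest embryo value, and 1-cell array 1 was the lowest. The log2 change was -1.005 ± 0.35 (adjusted p = 0.0385), a 2.01-fold fall, and 12.4% of kept probe sets fell more. The direction held in all 19 other settings (-1.32 to -0.51), but 11 of them left the call above 0.05. These were quantile normalization, median centring, no filter, the hybridization controls as a covariate, leaving out 1-cell arrays 1 and 4 together, and leaving out any single MII array or 1-cell array 3 or 4, with adjusted p from 0.0511 to 0.183.

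Igf2bp3, which encodes a KH-domain protein that binds and stabilizes mRNA, was read by 6 kept probe sets, and none passed. The brightest (1422610_s_at) read 2044.4, 2408.9, 2326.5 and 3120.9 in oocytes and 1311, 2160.5, 1731.7 and 2063.2 in embryos. The groups overlapped slightly, with embryo arrays 2 and 4 above oocyte array 1. Its log2 change was -0.45 ± 0.30 (adjusted p = 0.281), with a 95% interval of -1.08 to 0.18. The log2 differences of 1433731_at and 1433732_x_at were -0.12 ± 0.28 and -0.04 ± 0.37. Those of the remaining 3 were -0.21 ± 0.35, -0.11 ± 0.30 and 0.64 ± 0.56. The last came from a dim probe set, with an oocyte mean of 29, that exceeded the array median on 2 of the 4 oocyte arrays. The intervals of all 6 include 0, and the mean over all 6 gave -0.05 ± 0.20 (adjusted p = 0.886). The ratio of the brightest probe set to each of the 5 others did not pass between the groups either (adjusted p from 0.242 to 0.72). In Affymetrix naming, the suffixes of 1422610_s_at, 1422611_s_at and 1433732_x_at mark probes that may also bind other transcripts.

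In the ZFP36 family, whose proteins promote decay of AU-rich mRNAs, 1 of 3 genes passed, near the 35.3% of all 12359 genes that passed in either direction. Zfp36l2 (1437626_at) read 42, 100.4, 111.9 and 92.1 in oocytes and 260.4, 155, 165 and 175.2 in embryos. Every embryo value exceeded every oocyte value, by at least 1.39 times, with 1-cell array 1 the brightest and oocyte array 1 the dimmest. The log2 change was 1.08 ± 0.34 (adjusted p = 0.0199), a 2.12-fold rise with a 95% interval of 1.3 to 3.47. The call was lost in 5 of 19 other settings, without oocyte array 1 (0.81 ± 0.32, adjusted p = 0.0771), without 1-cell arrays 1 and 4 (0.89 ± 0.35, adjusted p = 0.079), after quantile normalization (0.65 ± 0.30, adjusted p = 0.131), after median centring (0.77 ± 0.30, adjusted p = 0.0822) and when the control signal entered as a covariate (0.80 ± 0.36, adjusted p = 0.123). It held without 1-cell array 1 alone (0.93 ± 0.31, adjusted p = 0.0289). The other probe sets of Zfp36l2 were not kept. One (1451034_at) read 8.6 to 27.1 in oocytes and 12.2 to 242.4 in embryos, the highest again on 1-cell array 1, and the other (1439054_at) did not exceed the median of any array.

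Zfp36, which encodes tristetraprolin, read 269.9, 216.5, 215.7 and 123.9 in oocytes and 164.8, 131.4, 141.9 and 163.2 in embryos. The embryo values lay close together inside the wider oocyte range, but only through oocyte array 4. Every other oocyte value exceeded every embryo value. The log2 change was -0.39 ± 0.30 (adjusted p = 0.366, 95% interval -1.02 to 0.24), although after quantile normalization it passed as lower (-0.82 ± 0.29, adjusted p = 0.0467). Zfp36l1 was near the array median on both of its probe sets. The brighter (1450644_at) read 29.4, 47.3, 40.3 and 53 in oocytes and 18.6, 40.4, 93 and 64.9 in embryos, a log2 difference of 0.16 ± 0.44 (adjusted p = 0.834). The other (1422528_a_at) read 28.2 to 45.7 in oocytes and 19.8 to 105.6 in embryos, a log2 difference of 0.42 ± 0.44 (adjusted p = 0.534). Their order among the embryo arrays differed, with array 1 the lowest on the first and the highest on the second, so these dim values give no steady level for Zfp36l1. Zfp36 and Zfp36l1 are also expressed in the somatic cells whose markers are given above. The part of such cells was not tested for any member, including those that passed. The array on which Zfp36l2 was brightest, 1-cell array 1, also had the highest sum of these markers.

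Genes known to work with these proteins were read from lists, each gene by its brightest kept probe set, beside a background of 20.6% of 12359 genes higher and 14.8% lower (35.3% in either direction). Of 37 partners in stored or repressed mRNA particles, 5 were higher, 11 were lower and 21 did not pass, with a median change of -0.30 against 0.17 for all genes. The median of all kept probe sets depends on the setting. It was -0.12 after quantile normalization, -0.15 after median centring and -0.01 under a filter at the 75th percentile of each array. List medians were not taken in those settings, so their distance from the median of all genes is not settled. The fragile X relative Fxr1 (2.83 ± 0.29, adjusted p = 2.75e-06) and the embryonic poly(A)-binding protein gene Pabpc1l (1.78 ± 0.29) rose. Fxr2, a relative of Fxr1, was counted as higher. It read 28.42 ± 26.87 (SD, n = 4) in oocytes, where it exceeded the median on 1 of 4 arrays, against 485.1 ± 167.2 in embryos. It met the filter through the embryo arrays, where it is high, so its call is not used as support and no size is given. Without 1-cell arrays 1 and 4 it was not among the calls. The other 3 kept probe sets of Fxr1 did not pass, so the rise of Fxr1 rests on 1 probe set. Larp4, a poly(A) tail protector, fell by 1.72 ± 0.33 on the log2 scale, and 1 of its other kept probe sets did not pass. Chosen after their values were seen, because they are partners of the same storage particles, the RNA helicase gene Ddx6 (-1.11 ± 0.34, adjusted p = 0.018) and Lsm14b (-1.16 ± 0.40, adjusted p = 0.037) fell, and the eIF4E-binding Eif4enif1 (1.12 ± 0.32, adjusted p = 0.0137) rose. Of the other kept probe sets of Ddx6, 1 passed as lower and the rest did not pass. Lsm14b lost its call with no filter, without MII array 2, 3 or 4, and without 1-cell array 3. Ddx6 lost it with the hybridization controls as a covariate, without MII array 3 and without 1-cell array 2. Eif4enif1 lost it after median centring and without MII array 2. Lsm14a (-0.56 ± 0.35), Patl1 (-0.56 ± 0.31) and Patl2 (0.14 ± 0.28), named later too, did not pass. Igf2bp1, the third gene of the IGF2BP family, also chosen later, was dim and gave 0.63 ± 0.55 (adjusted p = 0.438). Ncl and G3bp2 are named for their other probe sets. Ncl counted as higher, though another of its probe sets passed as lower (-1.134, limma adjusted p = 0.0332). G3bp2 counted as not passed (-0.40), though another of its probe sets rose (2.892, limma adjusted p = 1.2e-06). With the hybridization controls as a covariate the list held 4 falls in place of 11, it held 7 without 1-cell arrays 1 and 4 or without MII array 1 or 2, and 6 without MII array 3. Its rises numbered 3 after median centring.

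A list of other proteins that bind AU-rich or related mRNA elements, not all in the way of the ZFP36 family, held 1 rise and 5 falls among 16 genes (median -0.36). Roquin, encoded by Rc3h1, fell from 752.1 ± 79.71 to 134.5 ± 44.24 (-2.44 ± 0.28, adjusted p = 8.71e-06). Fubp3 passed as lower, with 260.6 ± 41.6 in oocytes and 42.92 ± 20.72 in embryos. It exceeded the median on 2 of the 4 embryo arrays, so no size is given. Hnrnpd, which encodes AUF1, rose (1.36 ± 0.32). Hnrnpab fell on its brightest probe set (-1.88 ± 0.48) and on 1 of its 4 others, but rose on another, and the remaining 2 did not pass, so its direction is not settled. The falls numbered 2 with the hybridization controls as a covariate, and the rises 0 after median centring and 2 without 1-cell array 3.

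**Figure D4:**
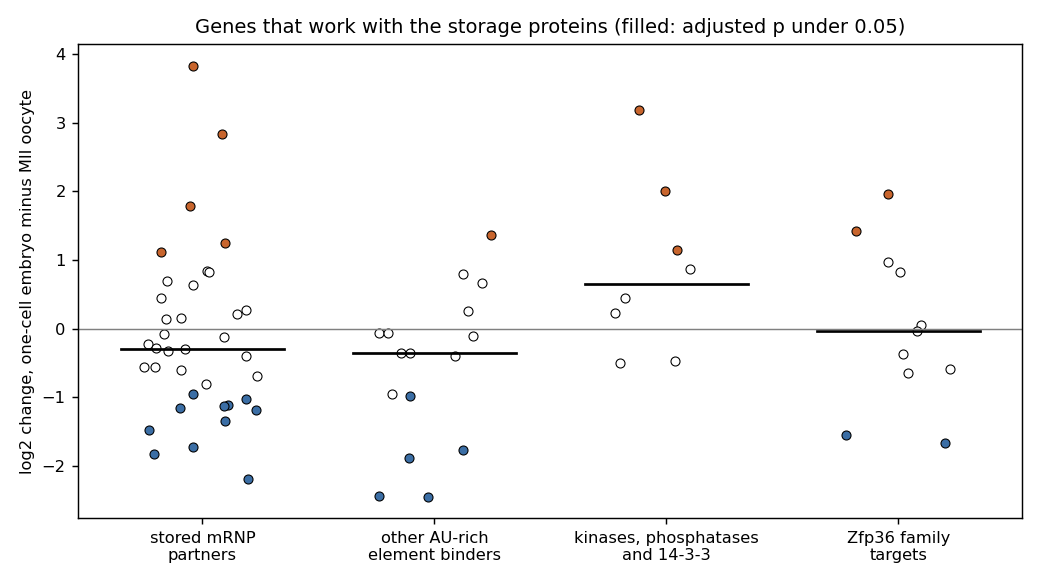
Log2 change (1-cell embryo minus MII oocyte) of each measured gene in 4 lists of genes that act with the storage proteins, by brightest kept probe set; filled points passed limma at an adjusted p under 0.05 (orange higher, blue lower) and bars are list medians, -0.30, -0.36, 0.66 and -0.03 from left to right. Each list holds more genes that did not pass than genes that rose.

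Among kinases, phosphatases and 14-3-3 proteins that act on these RNA-binding proteins, 3 of 8 measured genes rose and 0 fell (limma, 0 also at an unadjusted p under 0.05). The cell cycle kinase gene Cdk1 rose from 68.25 ± 15.34 to 773.4 ± 358.5 (3.19 ± 0.37, adjusted p = 7.22e-06). Mapk14, the p38 kinase upstream of ZFP36 phosphorylation, passed as higher (adjusted p = 0.0211) but exceeded the median on 2 of 4 oocyte arrays, so no size is given. Ppp2ca, the catalytic subunit of the phosphatase that reverses it, rose on its brighter probe set (1.14 ± 0.34) and fell on the other. Cdk1 was the 1 gene of this list that passed after median centring, without 1-cell array 3 and without 1-cell array 4. Of 11 measured genes known as targets of the ZFP36 family, 2 rose and 2 fell (median -0.03). The phosphatase gene Dusp1 fell from 3313 ± 1119 to 1058 ± 440.5 (-1.67 ± 0.35, adjusted p = 0.00155) and Notch1 rose (1.42 ± 0.34). Fos also passed as lower and Tnf as higher, but Fos exceeded the median on 1 of 4 embryo arrays and Tnf on 1 of 4 oocyte arrays, so no size is given for either. Each met the filter through the group where it is high, so these calls, though counted, are not used as support. The rises numbered 1 without 1-cell arrays 1 and 4 or with the hybridization controls as a covariate, and the falls 1 with that covariate; under a filter at the 75th percentile of each array they numbered 0 and 1.

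The genes whose signal followed a member most closely over the 8 arrays were ranked by Pearson r of log2 signal among 10669 probe sets, as a description only, since the 8 points share the group difference. For Ybx2 these were Tgfb3 (r = 0.998), Cmklr1 (0.995) and Rph3al (0.992). For Zar1 they were Ralgps2 (0.995), Snrpg (0.992) and Siah2 (0.991), and for Zfp36l2 they were Ctif (0.979), Gapvd1 (0.978) and Arhgef7 (0.978).

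Ybx2 and both Ybx3 probe sets passed as higher in all other processing settings run. Zar1 and Zfp36l2 kept their direction but not always their call, and Ybx1 and Zfp36 passed only after quantile normalization. Igf2bp3 and Zfp36l1 passed in none.

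**Figure D5:**
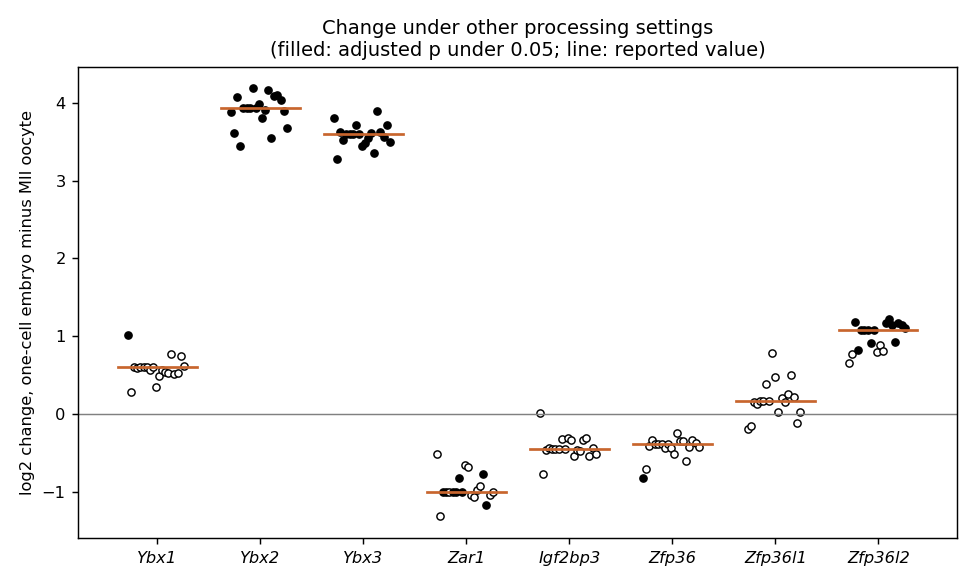
Log2 change (1-cell embryo minus MII oocyte) of the brightest kept probe set of each gene in 19 other settings (points, filled at an adjusted p under 0.05), with the reported value as a line. The Zfp36l1 probe set was not kept under the 75th percentile filter and has no point for it. Ybx2 stays between 3.44 and 4.19, Zar1 between -1.32 and -0.51 and Zfp36l2 between 0.65 and 1.22, and points of Igf2bp3 and Zfp36l1 lie on both sides of 0.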

How the data were processed

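The deposited values are linear intensities in arbitrary units, 1 for each probe set on each array. How the arrays were read and scaled, and any genome build, is not given in the sources used here. After trimming 2% at each end the mean was 150.0 on all 8 arrays, which shows scaling by the authors to 1 shared level and removes any change in total polysomal mRNA. Amplification in 2 rounds, per the labels, favours 3′ ends. The 64 controls were left out of the tests. Of the other 45037 probe sets, 34945 have 1 gene symbol in GEO's platform annotation, 932 several and 9160 none. An offset of 10 was added before log2, probe sets above the array median on at least 4 arrays were kept, and groups were compared with limma 3.58.1 in R 4.3.3 (lmFit, eBayes with a variance trend, 2-sided, Benjamini-Hochberg, threshold 0.05). Ratios between probe sets of a gene were tested the same way without the trend. Members and lists were chosen with earlier results of these data known. All members are named; from each list up to 4 genes with the smallest p were named, with others marked where named. Alternatives covered normalization, offset, filter, variance model, array weights, replicate block, hybridization controls and omitted arrays. Same-numbered arrays did not deviate together (correlations -0.159 to 0.143), so the numbers were not used as pairs. The procedure was tested on simulated data with independent noise of equal spread in both groups. The real arrays are less equal, so no power or error rate is taken from that test. Upstream sequences and gene names are RefSeq's for GRCm38.p6, which had promoter windows for 8 of the 9 genes.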

Additional observations from a re-analysis of the deposited data

Results flagged for a closer look

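The Ybx1 signal of MII array 4 (7840.3) lay apart from the other 3 oocyte arrays (4729.9 to 5115.3): its gap to the nearest of them, on log2 values, made up 0.845 of the range of the group, above Dixon's 95% critical value for 4 samples. It was the only group to do so among 38 examined (19 probe sets in 2 groups), where chance gives about 1 in 20.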

How the results depend on the processing

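Of 19 other settings, Ybx2 and both Ybx3 probe sets passed as higher in 19 each. The number of all probe sets called higher was 2937 after median centring, against 4511 as reported. Limma called 0 member probe sets lower, in place of Zar1 alone, after median centring, with no filter, without 1-cell arrays 1 and 4, and when the hybridization controls entered as a covariate. At an unadjusted p under 0.05 the first 3 of these settings held 1 and the last 0. With single arrays left out the number ran from 0 to 1. After quantile normalization it was 1 as well, but that was Zfp36 and not Zar1. With the replicate number as a block, 7209 probe sets were called against 7493, Zfp36l2 changed by 1.08 (adjusted p = 0.0389), Zar1 passed (adjusted p = 0.0442), no member call changed, and 2 of the 4 oocyte arrays were most like the embryo array of the same number. Sign changes were confined to probe sets that passed in neither setting. For Igf2bp3 after quantile normalization, the log2 difference was 0.01 on 1422610_s_at, 0.35 on 1433732_x_at and 0.08 on 1433731_at, and the differences of 1422611_s_at and 1450687_at from the brightest probe set were 0.51 and 0.70. Array weights gave 0.29 for 1433732_x_at and 0.03 for 1433731_at. The hybridization controls gave 0.54 for 1433732_x_at, 0.01 for 1433731_at, 0.22 for 1450687_at and -0.07 for 1453957_a_at. Without 1-cell arrays 1 and 4 these first 3 were 0.52, 0.02 and 0.17. Zfp36l1 gave -0.19 (quantile) and -0.16 (centring) on 1450644_at, and -0.32 (controls) and -0.12 (without arrays 1 and 4) on 1422528_a_at. With single arrays left out, the Igf2bp3 probe sets 1433732_x_at, 1433731_at and 1422611_s_at ran from -0.26 to 0.28, -0.23 to 0.01 and -0.29 to 0.08. The Zfp36l1 probe set 1450644_at then ran from -0.12 to 0.50 and the difference between both Zfp36l1 probe sets from -0.88 to 0.39. The cause of these shifts was not tested. The number of arrays, 4 in each group, limits what can be detected, and the dim Zfp36l1 lies close to the array median.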
